A study of Equus caballus with 14 samples.

Results

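PTGS2, PTGES and PGFS encode enzymes that make prostaglandins, and their transcripts were compared in the mediastinal (lung-draining) lymph nodes of horses with and without recurrent airway obstruction (RAO, also called heaves). The 3 genes were chosen by name and located through the horse RefSeq transcript that each array probe carries. They are 3 of the 599 genes that could be named on the array and hold 9 of its 43603 probes, 3 for PTGS2, 5 for PTGES and 1 for PGFS. All 9 probes passed the filter on low signal. RNA came from 7 RAO-affected and 7 control horses of mixed breed, with 1 horse on each 1-colour Agilent array. The RAO-affected horses were known to develop airway obstruction when stabled with dusty hay and the control horses to stay healthy there. All 14 were kept in that environment before the nodes were removed, so no horse was sampled without the dust exposure. Per the study's methods the RAO-affected horses were on average the older group, and age and disease cannot be told apart here.

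Prostaglandins are lipid mediators made from arachidonic acid, which phospholipase A2 enzymes release from membranes. The cyclooxygenases turn it into prostaglandin H2, and PTGS2 (COX-2) is the form that cytokines and bacterial products induce. Terminal synthases then set which prostaglandin is formed. PTGES (microsomal prostaglandin E synthase-1) is the inducible enzyme that makes prostaglandin E2 and often acts together with PTGS2, and PGFS (prostaglandin F synthase) is an aldo-keto reductase that makes prostaglandin F2α, a constrictor of airway smooth muscle. In lymph nodes prostaglandin E2 acts on lymphocytes and dendritic cells.

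Between 32696 and 39947 probes per array were well above background, and 1439 to 2614 were saturated. The arrays lay on 4 slides, each with horses of both groups. Slide 1 was scanned 16 days later than the rest and carried RAO-affected horse 4 with control horses 3 and 5. Its arrays correlated with one another at 0.986 to 0.991 over all probes and with the other 11 arrays at 0.923 to 0.959, so results are also given within slides. Signals are log2 intensities after quantile normalization. Differences were tested with limma two-sided, across the 38674 probes whose signal passed the scanner software's background test on 4 or more arrays, and the number of arrays limits their precision. After Benjamini-Hochberg adjustment no probe of the array passed in limma (0 called, 0% of those tested, smallest adjusted p 0.873). At an unadjusted p under 0.05 limma called 2177 probes, 5.63% of those tested. With the horses unpaired, no probe passed in the methods' t-test after adjustment either. The paired form that the methods name was not run. Every p below is therefore unadjusted unless named otherwise, and no member passed the adjusted threshold. In whole-node RNA, fewer cells of a type and less RNA per cell cannot be told apart. The lymphocyte markers that could be located, CD2, CD28 and IL7R (3 of 18 listed), were well above background on all 14 arrays.

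The 8 unsaturated member probes had a higher mean in RAO-affected than in control horses. The saturated PTGES probe gave 0.09, and -0.02 with 75th percentile scaling. Of the 9 probes, 5 had an unadjusted p under 0.05 in limma, all in the higher direction. Of all probes tested, 2.86% were called higher and 2.76% lower. With a 2-fold minimum added, 3 of the 9 passed, against 1.10% of all probes called higher and 0.372% called lower. The 5 probes come from only 2 transcripts, 4 from PTGES and 1 from PTGS2, so they are repeat measures of those transcripts and not 5 findings.

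**Figure D1:**
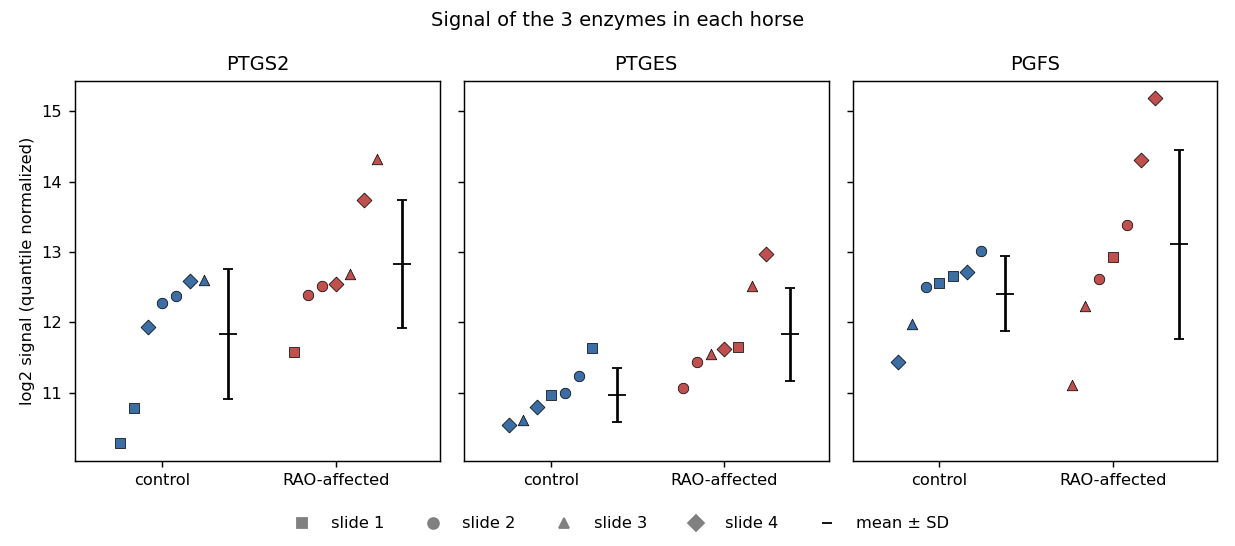
Quantile-normalized log2 signal (y axis) of PTGS2, PTGES and PGFS in each horse, by group, from the brightest probe of each gene that was saturated on no array; symbols give the slide, and bars the mean ± SD of 7 horses. RAO-affected horses 8 and 14 were the 2 highest for PTGS2 (14.33 and 13.74) and PTGES (12.52 and 12.96), horses 14 and 12 for PGFS (15.18 and 14.31), and the 3 slide 1 arrays the lowest for PTGS2.

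PTGES, the synthase of prostaglandin E2, was higher in RAO-affected horses in each of its 4 unsaturated probes. In the brightest of these (A_69_P000404), RAO-affected horses measured from 11.07 to 12.96 on the log2 scale with a median of 11.61, and control horses from 10.55 to 11.64 with a median of 10.97. All 7 RAO-affected horses lay above the control mean and 5 of 7 control horses lay below every RAO-affected horse, while 3 RAO-affected horses exceeded the highest control horse. The groups overlapped. The means were 11.83 ± 0.66 (SD, n = 7) and 10.97 ± 0.38 (SD, n = 7). The difference of 0.86 on the log2 scale (SE 0.28) was a 1.81-fold increase with a 95% interval of 1.20 to 2.74. The unadjusted p in limma was 0.00804 and the adjusted p 0.873, and a two-sided exact permutation test of the horse labels gave p = 0.00758. The other 3 unsaturated probes gave 1.90-, 2.07- and 2.03-fold, with unadjusted p of 0.0142, 0.0134 and 0.0127 in limma. Across the 14 horses the 4 probes followed one another closely, with Pearson's r from 0.956 to 0.995 between pairs.

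The fifth PTGES probe (A_69_P000405) did not show this difference. It was saturated on 12 of 14 arrays, 6 in each group, and averaged 16.09 ± 0.04 (SD, n = 7) on the log2 scale in the RAO-affected group and 16.00 ± 0.26 (SD, n = 7) in the control group. The 2 means were 0.09 apart (SE 0.11, limma unadjusted p = 0.458, exact permutation p = 0.681), a value measured at the ceiling of the scanner. All 11 arrays of slides 2 to 4 lay between 16.07 and 16.14 in this probe, a range of signals in which horses could not be ordered. On those slides the differences were -0.0007, -0.015 and -0.006, and control horse 3 on slide 1, at 15.42, lay below every other array. Its r with the 4 unsaturated PTGES probes was 0.05 to 0.18.

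**Figure D2:**
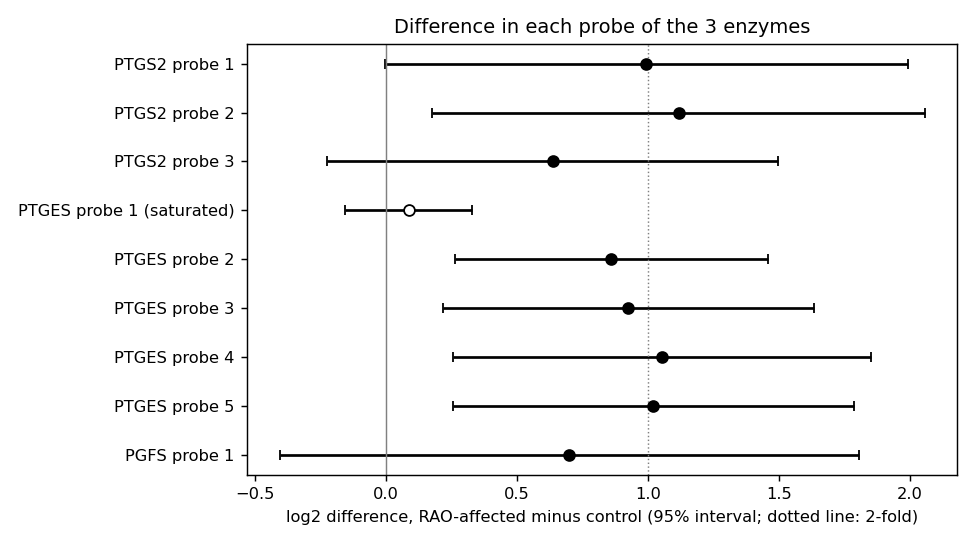
RAO-affected minus control mean on the log2 scale (x axis) with its 95% interval from limma, for each of the 9 probes; the open symbol is the saturated PTGES probe. The intervals of the 4 unsaturated PTGES probes and of PTGS2 probe 2 lie above 0, while those of the other 4 probes include 0.

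PTGS2, the inducible cyclooxygenase, measured from 11.58 to 14.33 in RAO-affected horses (median 12.55) and from 10.28 to 12.61 in control horses (median 12.27) in its brightest probe, A_69_P000997. Horses 8 and 14 stood above the other RAO-affected horses, and 6 of 7 RAO-affected horses lay above the control mean. Group means were 12.83 ± 0.91 (SD, n = 7) and 11.83 ± 0.93 (SD, n = 7), a difference of 0.99 (SE 0.46). The RAO-affected mean was 1.99-fold higher, with a 95% interval of 0.997 to 3.98. It missed the unadjusted threshold narrowly (limma unadjusted p = 0.0509, adjusted p = 0.886, exact permutation p = 0.0758).

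The second PTGS2 probe (A_69_P000996) gave a similar value on the other side of the threshold. RAO-affected horses measured 11.83 ± 1.00 (SD, n = 7) and control horses 10.71 ± 0.71 (SD, n = 7), a 2.17-fold increase with a 95% interval of 1.13 to 4.16 (limma unadjusted p = 0.0234, exact permutation p = 0.0239). In this probe all 7 RAO-affected horses lay above the control mean and 5 of 7 control horses below every RAO-affected horse. The r between the first 2 probes was 0.952 over the 14 horses. The third and dimmest PTGS2 probe (A_69_P004631), well above background on 13 arrays, gave 7.52 ± 0.93 against 6.89 ± 0.62 (SD, n = 7 each), 1.55-fold higher (limma unadjusted p = 0.136, exact permutation p = 0.166). It followed the other 2 less closely (r of 0.278 and 0.512).

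The slide mattered most for the brightest PTGS2 probe. There the 3 slide 1 arrays lay at 10.28 to 11.58, below all 11 other arrays (11.94 to 14.33), and 2 of these 3 were control horses. With slide as a fixed block the difference was 0.69, with an unadjusted p in limma of 0.0349. In the second probe slide 1 (9.41 to 11.04) overlapped the other arrays (10.69 to 13.63), and the blocked difference was 0.86 (limma unadjusted p = 0.0255). In the third, slide 1 (7.14 to 8.67) lay within the range of the others (5.62 to 8.80), and the blocked difference was 0.68 (limma unadjusted p = 0.0946). Without RAO-affected horse 8 the first 2 probes gave 0.74 and 0.82, with unadjusted p = 0.111 and 0.0432 in limma.

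**Figure D3:**
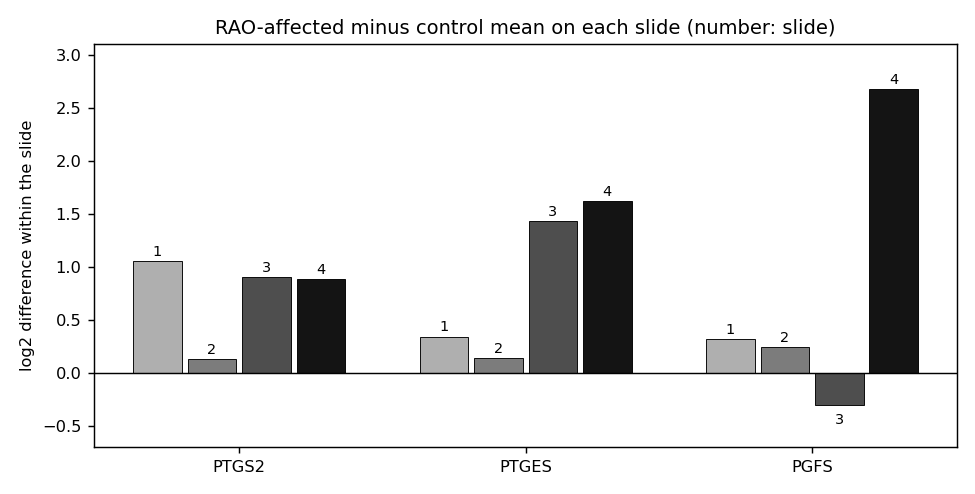
Difference between the mean log2 signal of RAO-affected and control horses within each slide (y axis), from the same probe of each gene as in the plot of signals by horse; the number at each bar is the slide, and each mean holds 1 or 2 horses. PTGS2 and PTGES were above 0 on all 4 slides, and PGFS ranged from -0.30 on slide 3 to 2.67 on slide 4.

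Within slides, where each group has 1 or 2 horses and single slides were not tested, RAO-affected horses were higher in PTGS2 on 4 of 4 slides, by 1.05, 0.13, 0.90 and 0.88 on slides 1 to 4. For PTGES the differences were 0.34, 0.14, 1.43 and 1.62. In these probes slide 2 held the smallest difference for both genes, while in the other 3 unsaturated PTGES probes it was slide 1. The 2 largest for PTGES came from slides 3 and 4, the slides of horses 8 and 14. With slide as a fixed block the PTGES difference was 0.88 (limma unadjusted p = 0.0149).

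PGFS, measured by a single probe (A_69_P000626), ranged from 11.11 to 15.18 in RAO-affected horses (median 12.93) and from 11.43 to 13.01 in control horses (median 12.56). Horses 14 and 12, at 15.18 and 14.31, lay highest, horse 6 at 13.38 was the only other RAO-affected horse above every control horse, and horse 8 at 11.11 was the lowest of all 14. The SD was 1.35 in RAO-affected and 0.53 in control horses, a ratio of 2.53 that was not tested. Means of 13.11 and 12.41 gave a 1.62-fold higher signal with a 95% interval of 0.754 to 3.50, which includes no change and a 2-fold increase alike (limma unadjusted p = 0.196, exact permutation p = 0.234).

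The PGFS difference lay mostly on 1 slide. It was 0.31, 0.24 and -0.30 on slides 1 to 3 and 2.67 on slide 4, where horses 12 and 14 were compared with control horses 11 and 13 (12.72 and 11.43). With slide as a fixed block the PGFS difference was 0.88 (limma unadjusted p = 0.0758). Without the block, leaving out horse 14 gave 0.35 (limma unadjusted p = 0.429), and leaving out horse 8 gave 1.03 (limma unadjusted p = 0.0369).

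As measured, the 3 enzymes did not vary alike between horses. Horse 8 had the highest PTGS2, the second highest PTGES and the lowest PGFS signal, while horse 14 was among the 2 highest for all 3. Over the 14 horses PTGS2 and PTGES had a Pearson's r of 0.53 and a Spearman's rho of 0.29, given as a description. The arrays share slides, and with the mean of each slide removed r was 0.87 and rho 0.84. After the group means were removed as well r was 0.78 and rho 0.63. Without the 2 horses farthest from the PTGS2 median, control horse 3 (10.28) and RAO-affected horse 8 (14.33), r with no means removed was 0.34. The r with slide means removed was not recomputed without any horse. In the 7 RAO-affected horses alone r was 0.78 and in the 7 control horses -0.48, where both slide 1 arrays had low PTGS2. PGFS had an r of 0.07 with PTGS2 and 0.43 with PTGES, and 0.37 and 0.59 with slide means removed.

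**Figure D4:**
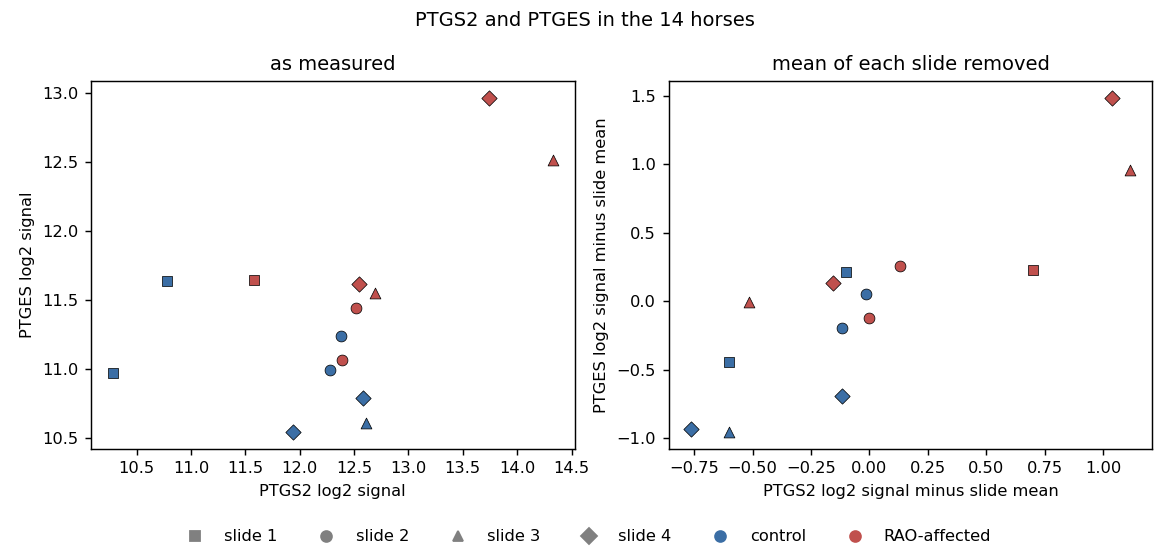
PTGES against PTGS2 log2 signal in the 14 horses as measured (left) and after the mean of each slide was subtracted (right); colours give the group and symbols the slide. As measured, the 3 slide 1 arrays lie to the left of the rest (r = 0.53), and with slide means removed RAO-affected horses 8 and 14 lie highest in both genes (r = 0.87).

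Of 38 other listed genes of the prostanoid pathway, 8 could be located and 7 were tested. Of these 7, 1 had an unadjusted p under 0.05, in the higher direction, and their median log2 difference was 0.03, against -0.03 over all probes tested. AKR1C1 was that gene, an aldo-keto reductase that is also listed as AKR1C23 and lies close to PGFS in the horse gene table, with only genes that carry no symbol between them. It measured 10.51 ± 0.75 in RAO-affected and 9.74 ± 0.28 in control horses (SD, n = 7 each), 1.70-fold higher (limma unadjusted p = 0.0205, adjusted p = 0.873, exact permutation p = 0.00583), and 4 of 7 RAO-affected horses exceeded the highest control horse. Its other tested probe gave a difference of 0.32 (unadjusted p = 0.212 in limma). Whether these probes and that of PGFS share transcripts was not tested.

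Upstream of the cyclooxygenases, PLA2G4A (cytosolic phospholipase A2), the direct neighbour of PTGS2 in the gene table, differed by 0.26 (limma unadjusted p = 0.138), and the secreted phospholipase PLA2G2A by -0.26 (unadjusted p = 0.123 in limma). The other terminal synthases gave 0.48 for PTGDS, which makes prostaglandin D2, with an unadjusted p of 0.273 in limma, and 0.03 for PTGES3, a prostaglandin E synthase and chaperone partner (unadjusted p = 0.809 in limma, saturated on 2 arrays). The other PTGDS probe gave 0.64 (limma unadjusted p = 0.0920). HPGD, which breaks prostaglandins down, differed by -0.24 (limma unadjusted p = 0.608). For PTGER2, a receptor of prostaglandin E2, the difference was 0.01 (SE 0.16, limma unadjusted p = 0.950), and its 6 probes lay between -0.14 and 0.02. The receptor PTGFR did not pass the filter on low signal. None of the 9 listed genes of the leukotriene branch was analysed here.

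**Figure D5:**
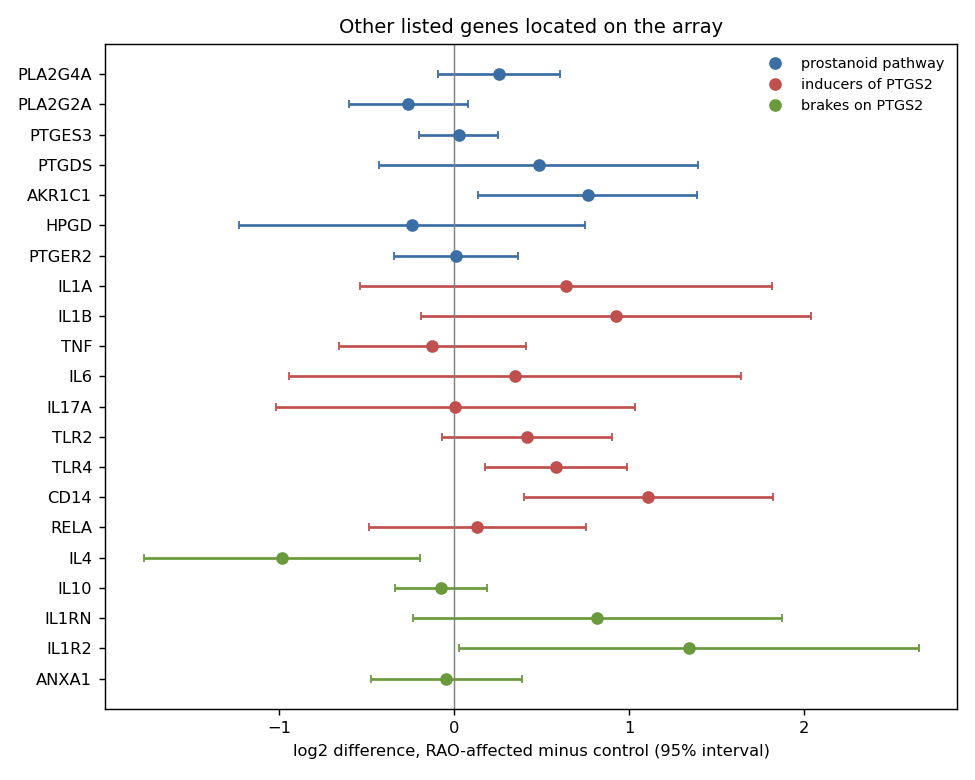
RAO-affected minus control mean on the log2 scale (x axis) with its 95% interval from limma for the located genes of the prostanoid pathway, the inducers of PTGS2 and its brakes, 1 probe per gene. The intervals of AKR1C1, TLR4, CD14 and IL1R2 lie above 0, that of IL4 below 0, and all others include 0.

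Of 11 listed inducers of PTGS2, 9 were tested. Of these, 2 passed the unadjusted threshold, both higher, and the median difference was 0.42. They were CD14, the lipopolysaccharide co-receptor, 2.16-fold higher (limma unadjusted p = 0.00494, saturated on 1 array), and the lipopolysaccharide receptor TLR4, 1.49-fold higher (limma unadjusted p = 0.00844). The 4 probes of the cytokine IL1B differed by 0.90 to 1.06, with an unadjusted p of 0.0977 in limma for the brightest, and without RAO-affected horse 8 that probe gave 0.42. TNF differed by -0.12 (unadjusted p = 0.625 in limma) and IL17A by 0.01 (unadjusted p = 0.991 in limma, well above background on 7 arrays). Of 8 listed brakes, 5 were tested, with a median difference of -0.04, and 1 passed the unadjusted threshold in each direction. IL10 differed by -0.08 (limma unadjusted p = 0.547) and IL1RN by 0.82 (limma unadjusted p = 0.118). The 10 IL1RN probes ranged from 0.42 to 1.31, none under the threshold. With slide as a block IL1RN differed by 0.77 (limma unadjusted p = 0.0419), and without RAO-affected horse 8 by 0.48 (limma unadjusted p = 0.260). IL1R2, the decoy receptor of interleukin-1, was higher by 1.34 on the log2 scale, 2.53-fold (limma unadjusted p = 0.0461, exact permutation p = 0.0542). With slide as a block it was higher by 1.00 (limma unadjusted p = 0.0757) and without RAO-affected horse 8 by 0.86 (limma unadjusted p = 0.0780). The cytokine IL4 differed by -0.98 in its brightest probe (limma unadjusted p = 0.0184). Its 17 probes, repeat measures of 1 gene, ranged from -1.76 to -0.59, 15 of them with an unadjusted p under 0.05 in limma. The brightest was well above background on 12 of 14 arrays and the other 16 on 4 to 10, so that part of the IL4 signal lay near background. ANXA1, a mediator of glucocorticoid action, differed by -0.04 (limma unadjusted p = 0.828).

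Some markers of other cells were also higher in RAO-affected horses, and their part in the PTGES and PTGS2 differences was not tested. Of 12 listed macrophage and monocyte markers 6 were tested, all with a positive difference, and 3 (CD163, CD14 and TLR4) had an unadjusted p under 0.05 in limma. CD14 and TLR4 are on both lists, and their values here are those given among the inducers of PTGS2. CD163 was higher by 2.61 on the log2 scale, whereas CD68, saturated on 2 arrays, differed by 0.04. The summed linear signal of the 6 ranged from 109368 to 211036 in RAO-affected and from 75331 to 187522 in control horses. Such sums weigh the brightest probes most, and here CCL2 was saturated on 3 arrays and CD14 on 1. Of 18 listed neutrophil markers MMP9 was the one located, higher by 1.32 (unadjusted p = 0.00993 in limma). Of 17 stromal and vessel markers 9 were tested, all positive, and LUM, SELP and CAV1 had an unadjusted p under 0.05 in limma. With slide as a block CAV1 missed it (unadjusted p = 0.0522 in limma) while FMOD and BGN passed (unadjusted p = 0.0391 and 0.0361 in limma). Without the block the 7 FMOD probes differed by 0.002, 0.03, 0.07, 0.08, 0.21, 0.65 and 0.69. Summed signals of the 9 stromal and vessel markers were 108830 to 237757 against 66674 to 194643, with DCN saturated on 5 arrays and VCAM1 on 1. Of 17 lung epithelium markers 3 were tested. SCGB1A1, the secretory protein of airway club cells, was higher by 1.33 (unadjusted p = 0.0234 in limma), SFTPA1, a surfactant protein, by 0.54 (unadjusted p = 0.527 in limma) and CFTR by 0.14 (unadjusted p = 0.347 in limma), with summed signals of 6628 to 58768 against 4732 to 18671. Both located mast cell markers had positive differences, 0.77 for TPSB2 and 1.04 for FCER1A, with unadjusted p of 0.324 and 0.0532 in limma and summed signals of 4071 to 23340 against 2051 to 18435. The 3 lymphocyte markers differed by -0.43 (CD2), -0.41 (CD28) and 0.09 (IL7R), with none past the threshold and summed signals of 9931 to 39902 against 12284 to 26877. The platelet marker ITGA2B differed by 0.17 (unadjusted p = 0.742 in limma).

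Over 525 other named genes, the signals most like each enzyme were found by Pearson's r across the 14 horses with group means removed, as a description. For PTGS2 these were STAR, which carries cholesterol into mitochondria (r = 0.89), DCUN1D3 (0.88) and CLU (0.85), the last saturated on all 14 arrays. With slide removed as well, r was 0.83 for STAR but 0.54 for DCUN1D3 and 0.39 for CLU. For PTGES they included the serotonin transporter SLC6A4 (0.84) and the transcription factor BHLHE40 (0.78), with 0.82 and 0.89 after slide was removed. SLC6A4 was well above background on 10 of 14 arrays, so part of its signal lay near background. For PGFS they were FIBIN (0.93), ALB, which encodes serum albumin (0.83), and the Wnt antagonist FRZB (0.81), with 0.93, 0.78 and 0.86. None of these 8 genes differed between the groups at an unadjusted p under 0.05 in limma.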

How the data were processed

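Arrays of node RNA from 14 horses, 7 per group, were analysed. The authors deposited 1-colour Agilent scanner output, an intensity per spot that was background-subtracted by Feature Extraction (10.5.1.1 in the file headers, 9.1 in the submitters' processing notes) and not scaled between arrays. The authors also deposited a table of quantile-normalized signals, each as a ratio to the median of its probe over the arrays, used as an alternative (r with the centred intensities at least 0.999). Control spots (1417 per array) and spots marked uneven or outlying (19 to 177) were left out, replicate spots were averaged per probe, and quantile normalization was applied on the log2 scale. Probes were named by accession through a RefSeq horse gene table (1251 of 43603, with 10 accessions from the study's primer list). For unnamed loci a listed synonym was used. Each gene was represented by its brightest tested probe saturated on no array or, where every tested probe was saturated on some array, by the brightest.

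Probes well above background on at least 4 arrays were tested with limma (unpaired, two-sided, Benjamini-Hochberg). Single genes also have an exact permutation test over the 3432 label splits. The methods name paired tests, and no label pairs horses. The fit was tested on simulated data. Alternatives were 75th percentile scaling, normexp (offset 50, on median signals, as the files used here hold no mean signal) and other filters. Further ones were slide, array weights, an ordinary t-test run unpaired, other probes and leaving out each horse. The members and lists were chosen with earlier results of these data known. The text names the 3 enzymes, located genes of the lists and the 3 genes most like each enzyme, of which 1 is not reported here. Tools were R 4.3.3, limma 3.58.1, matplotlib 3.10.9, pandas 2.3.3, scipy 1.17.1 and numpy 2.4.6.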

Additional observations from a re-analysis of the deposited data

Results flagged for a closer look

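In the saturated PTGES probe, control horse 3 lay at 15.42 on the log2 scale and the other 6 control horses between 16.06 and 16.14. The gap made up 0.889 of the group's range, above the 95% critical value of Dixon's test. Control horse 3 was not saturated in this probe, while each of the other 6 was. This was 1 of 18 groups examined (both groups in each of the 9 probes), and chance alone flags about 1 in 20 groups.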

How the results depend on the processing

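The PTGS2, PTGES and PGFS differences were positive under each alternative run. PTGS2, at 0.99 with an unadjusted p = 0.0509 in limma, came under an unadjusted p of 0.05 in limma with 75th percentile scaling (0.99), with slide as a fixed block (0.69), with the mean over its 3 probes (0.92) and, added after seeing the data, with the slide block and without RAO-affected horse 8 (0.55). The mean over unsaturated probes, also added then, gave the same 0.92, since no PTGS2 probe was saturated. PTGS2 stayed above that threshold with array weights (0.60), without slide 1 (0.68) and in an ordinary unpaired t-test (0.99). Leaving out each horse in turn gave 0.73 (without control horse 3) to 1.20 (without RAO-affected horse 4), with 4 of 14 fits under that threshold. PTGES was 0.086 when its brightest, saturated probe was used, and otherwise ranged from 0.67 to 0.99 with 1 horse left out, under the threshold in 14 of 14 fits. PGFS stayed above the threshold with slide as a fixed block alone (0.88, limma unadjusted p = 0.0758). It came under the threshold when the slide block was combined with leaving out RAO-affected horse 8 (1.03), a setting added after seeing the data. With 1 horse left out and no block PGFS ranged from 0.35 to 1.03, under the threshold in 1 of 14 fits, without horse 8. Of all probes tested, 569 passed 2-fold and an unadjusted p under 0.05, 74.7% of them higher in RAO-affected horses. The count was 268 with normexp (87.7% higher), 291 with a filter at all 14 arrays, 1111 without slide 1 and 386 to 1117 with 1 horse left out (fewest without RAO-affected horse 14, most without horse 4). The cause of these shifts was not tested. No paired analysis was run, as the groups share no replicate number and no label states pairs. Control horses carry odd and RAO-affected horses even numbers, and whether consecutive numbers mark pairs is not stated. Saturation limits the fifth PTGES probe.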
